A study of Rattus norvegicus with 6 samples.

Results

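Selectins and endothelial adhesion molecules were followed in rat myocardium as 7 genes of 28293 in the deposited expression table. They were P-selectin (Selp), E-selectin (Sele), the selectin ligand PSGL-1 (Selplg), Icam1, Icam2, Vcam1 and Madcam1, chosen by symbol with their expression differences between MI/RI and sham already known. Their MI/RI and sham values are therefore a description. They were part of the fit across all genes, and whether that fit called them is given as a description too, not as a test of them. The samples came from 3 sham rats and 3 rats with myocardial ischemia/reperfusion injury (MI/RI). All were male and labelled as wild type, and the strain, the age and the part of the heart that was sampled were not given in the sources used here. In the MI/RI group a ligature closed the left anterior descending coronary artery for 30 min, and the heart was taken after 6 h of reperfusion. The sham labels carry the same pair of times. The study's methods describe vehicle given by tail vein to sham and MI/RI rats, which the labels of these samples do not mention. The labels number 3 samples in each group without saying that each is a separate rat, as is assumed here, so the p-values measure only the spread between these samples.

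Circulating leukocytes leave the blood in steps. P-selectin and E-selectin on activated endothelium bind glycans carried by PSGL-1 and other leukocyte proteins and hold rolling cells, after which ICAM-1, ICAM-2, VCAM-1 and MAdCAM-1, all of the immunoglobulin superfamily, bind leukocyte integrins and hold the cells firmly. Endothelial cells keep P-selectin protein stored in Weibel-Palade bodies and platelets in alpha granules, ICAM-2 is present on resting endothelium, and E-selectin, ICAM-1 and VCAM-1 are classical products of cytokine-stimulated, NF-κB-driven transcription in reperfused tissue.

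The 250 bases before the annotated transcription start are shown for Icam1, Vcam1 and Madcam1, whose mRNAs were all higher in the MI/RI samples and whose promoters are classical NF-κB targets. RefSeq windows of the rat build GRCr8 were found for 4 of the 7 genes. The Sele window is not shown, because its start lay 517 bases inside the gene's annotated span. The Icam1 start lay 157 bases inside that gene's span. The windows are Icam1 at chr8:27829595-27829844 on the plus strand, Vcam1 at chr2:206742784-206743033 on the minus strand and Madcam1 at chr7:10690323-10690572 on the minus strand, each written 5′ to 3′ on the gene's strand. Capitals mark matches to GGGNNTTCC, GGANNTTCC (2 forms of a κB site) and TATAAA (the TATA box) on either strand.
Icam1: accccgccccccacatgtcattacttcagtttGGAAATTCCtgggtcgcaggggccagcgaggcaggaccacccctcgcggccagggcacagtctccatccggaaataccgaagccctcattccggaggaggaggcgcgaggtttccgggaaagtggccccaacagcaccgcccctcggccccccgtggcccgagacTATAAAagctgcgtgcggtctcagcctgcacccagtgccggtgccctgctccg
Vcam1: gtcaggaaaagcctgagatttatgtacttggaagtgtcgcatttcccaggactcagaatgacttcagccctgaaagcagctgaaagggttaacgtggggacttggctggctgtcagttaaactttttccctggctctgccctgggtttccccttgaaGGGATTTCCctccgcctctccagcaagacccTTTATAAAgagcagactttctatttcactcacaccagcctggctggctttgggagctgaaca
Madcam1: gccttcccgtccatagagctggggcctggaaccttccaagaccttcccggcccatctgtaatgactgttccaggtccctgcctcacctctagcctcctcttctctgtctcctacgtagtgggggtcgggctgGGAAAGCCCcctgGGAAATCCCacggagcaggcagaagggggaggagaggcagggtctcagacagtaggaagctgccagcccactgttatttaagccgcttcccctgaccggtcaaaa
The Icam1 window held GGAAATTCC, which reads the same on both strands, at positions -218 to -210 from the start and TATAAA at -53 to -48. In the Vcam1 window GGGATTTCC lay at -93 to -85, with TATAAA at -60 to -55 overlapping a match on the other strand at -62 to -57. Madcam1 had a pair of matches on the other strand, GGAAAGCCC at -118 to -110 and GGAAATCCC at -105 to -97, and no TATAAA. Of 33469 RefSeq windows of this length, 5.09% held GGGNNTTCC, 3.36% held GGANNTTCC, 8.30% held at least 1 of them and 12.9% held TATAAA. A further motif, TGANTCA (the AP-1 site, in 6.34% of windows), was matched in none of the 4 windows, and no motif was matched in the Sele window. The motifs were chosen after the windows had been seen, and a match describes the letters only.

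Expression was deposited as FPKM, fragments per kilobase of gene scaled to library size, which allows levels of different genes to be set side by side. The fragments behind the values were recovered from their step size, as whole numbers (within 0.02) for 99.9% of the 19481 genes above 0. The total that the values had been divided by came to 42221073, 49848438 and 47945186 fragments in sham replicates 1 to 3 and to 36848184, 39480833 and 37206448 in the MI/RI replicates. Over the 10942 genes with a mean of at least 0.5 FPKM, rank correlations lay between 0.928 and 0.952 within sham. They lay between 0.938 and 0.962 within MI/RI and between 0.791 and 0.900 across the groups. Mitochondrially encoded mRNAs took 80.1% to 86.2% of the summed FPKM in sham and 61.8% to 71.5% in MI/RI. Groups were compared by limma on log2(FPKM + 0.1) for the 10942 genes with a mean of at least 0.5 FPKM, and a gene was called when its Benjamini-Hochberg adjusted p was under 0.05. Of these genes 2790 (25.5%) were called higher in MI/RI and 805 (7.36%) lower, so that 77.6% of the calls were higher. That share was 87.3% with values rescaled to TPM, 56.5% after centring each sample on its median, 48.0% after quantile normalization and 21.7% after rescaling over genes not mitochondrially encoded. The median log2 fold change of all tested genes was 0.29 as deposited, and 0.48, 0.04, -0.02 and -0.46 in the same order of scalings.

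The selectins were under 0.3 FPKM in every sham sample and above 2 FPKM in every MI/RI sample. Selp (ENSRNOG00000002794) stood at 0.0279, 0.0650 and 0.209 FPKM in sham replicates 1 to 3 and at 7.97, 10.5 and 23.4 FPKM in the MI/RI replicates. Every MI/RI rat lay far above every sham rat, and replicate 3 was the highest in each group. The group means were 0.101 ± 0.0956 and 14.0 ± 8.29 FPKM (SD, n = 3), a ratio of 139. On the log2(FPKM + 0.1) scale, which understates changes of genes this low, the difference was 6.08 (SE 0.44), and 0.00914% of the genes tested, 1 gene, had a larger one. Which genes lay above Selp depended on the pseudocount. With 0.01 Selp was 7.20, the chemokine Cxcl1 was 6.91 and the cytokine Il6 was 8.68. With 0.1 Cxcl1 was 6.73 and Il6 was 5.91. The sham values rested on 4, 11 and 34 fragments and the MI/RI values on 997, 1406 and 2957. The 4 fragments have a 95% Poisson interval of 1.09 to 10.2, which covers counting error only, as do all such intervals where PCR copies cannot be told from separate molecules. The sham level of Selp, and with it the ratio, could not be placed more closely at this depth.

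Sele (ENSRNOG00000002723) was 0.184, 0.295 and 0.0868 FPKM in the sham replicates and 2.23, 2.26 and 3.41 FPKM in the MI/RI replicates. The groups did not overlap, and MI/RI replicate 3 was again the highest while sham replicate 3 was the lowest. The means were 0.189 ± 0.104 and 2.63 ± 0.673 FPKM (SD, n = 3), a ratio of 13.9, with a log2 fold change of 3.28 (SE 0.36). The fragments numbered 28, 53 and 15 in sham and 296, 321 and 457 in MI/RI. Selp and Sele passed the filter only through the MI/RI group, since their sham means lay under 0.5 FPKM.

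Selplg (ENSRNOG00000000699), the gene of the PSGL-1 backbone that leukocytes carry, was 0.610, 0.664 and 0.632 FPKM in the sham replicates and 2.23, 0.783 and 0.907 FPKM in the MI/RI replicates. All 3 MI/RI values lay above the sham values, but MI/RI replicates 2 and 3 lay only just above them and replicate 1 stood apart. The means were 0.636 ± 0.0271 and 1.31 ± 0.799 FPKM (SD, n = 3), with a log2 fold change of 0.79 (SE 0.38) that was 0.36 without MI/RI replicate 1. The gene was not called. It was read from 165, 212 and 194 fragments in sham and from 525, 198 and 216 in MI/RI.

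Among the integrin ligands, Icam1 and Vcam1 were several-fold higher after MI/RI and Icam2 was not separated between the groups. Icam1, the ligand of the leukocyte integrins LFA-1 and Mac-1 (ENSRNOG00000020679), was 2.70, 2.03 and 3.91 FPKM in the sham replicates and 15.3, 13.7 and 21.1 FPKM in the MI/RI replicates. The groups were far apart, and replicate 3 was the highest in each. The means were 2.88 ± 0.953 and 16.7 ± 3.87 FPKM (SD, n = 3), a ratio of 5.79 and a log2 fold change of 2.52 (SE 0.29), from 266 to 493 fragments in sham and 1423 to 2060 in MI/RI.

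Icam2 (ENSRNOG00000025143), which also binds LFA-1, was 3.81, 6.04 and 3.72 FPKM in the sham replicates and 6.61, 5.40 and 5.40 FPKM in the MI/RI replicates. The groups overlapped, as sham replicate 2 was above MI/RI replicates 2 and 3. The means were 4.53 ± 1.31 and 5.80 ± 0.697 FPKM (SD, n = 3), with a log2 fold change of 0.38 (SE 0.25) that was not called and that turned to -0.02 after quantile normalization and to -0.39 after rescaling over genes not mitochondrially encoded. The 6 libraries gave between 347 and 649 fragments each.

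Vcam1 (ENSRNOG00000014333), the ligand of the integrin VLA-4, was 0.886, 0.951 and 1.52 FPKM in the sham replicates and 7.77, 2.33 and 7.04 FPKM in the MI/RI replicates. No values overlapped, although MI/RI replicate 2 lay much nearer to the sham rats than the other two. The means were 1.12 ± 0.349 and 5.71 ± 2.95 FPKM (SD, n = 3), a ratio of 5.10, and the log2 fold change was 2.11 (SE 0.43), or 2.66 without MI/RI replicate 2. Fragments numbered 138, 175 and 269 in sham and 1056, 339 and 967 in MI/RI.

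Madcam1 (ENSRNOG00000008217), best known as the ligand of the integrin α4β7 on mucosal venules, was the lowest of the genes after MI/RI. It was 0.111, 0.235 and 0.179 FPKM in the sham replicates and 0.530, 0.535 and 0.735 FPKM in the MI/RI replicates. The groups did not overlap. The means were 0.175 ± 0.0622 and 0.600 ± 0.117 FPKM (SD, n = 3), a ratio of 3.42. Its mean over all samples, 0.388 FPKM, was under the filter, and it was not in the main comparison. With no filter its log2 fold change was 1.36 (SE 0.31). The values rested on 6, 15 and 11 fragments in sham and 25, 27 and 35 in MI/RI, the fewest of the 7 genes over both groups.

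**Figure D1:**
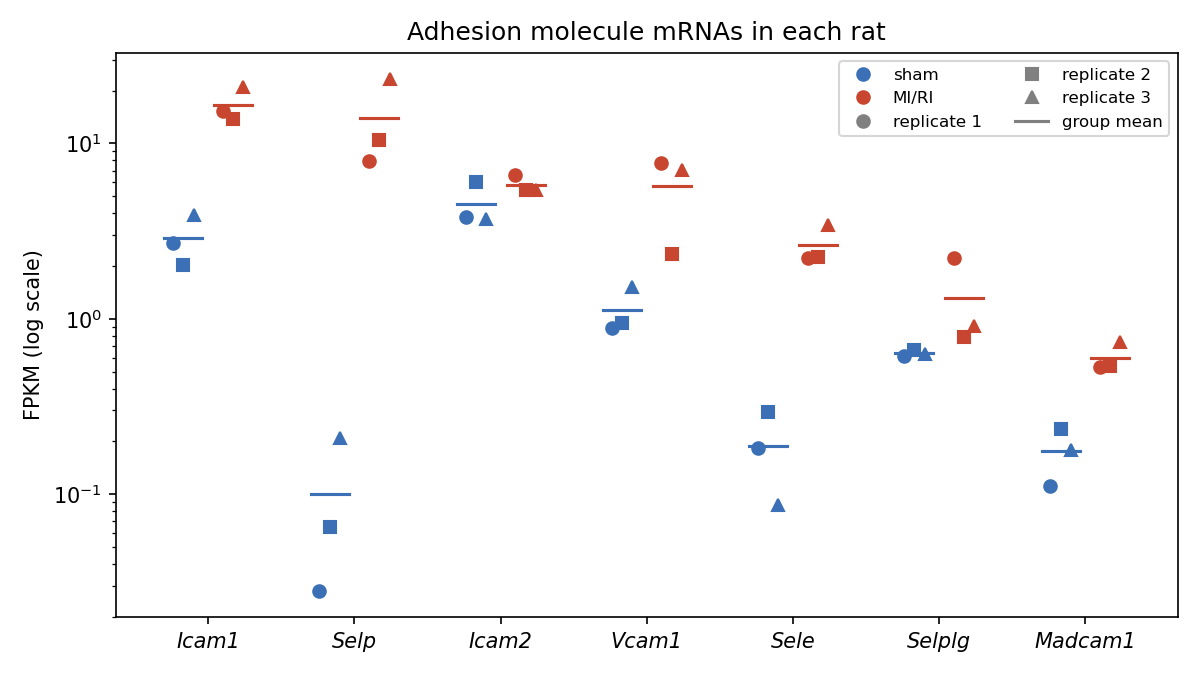
FPKM on a log axis of the 7 genes in each sample, with sham in blue, MI/RI in red, a marker shape for each replicate number and a line at each group mean. The MI/RI points lie above all sham points for every gene but Icam2, and the gap is widest for Selp, from 0.209 FPKM in the highest sham sample to 7.97 FPKM in the lowest MI/RI sample.

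As a description, 6 of the 7 genes entered the fit across all genes and 4 of them, Selp, Sele, Icam1 and Vcam1, fell among the calls higher in MI/RI, which were 25.5% of all genes tested (32.9% were called in either direction). Selp and Sele entered the fit only because of their MI/RI values. None was called lower. For 6 of the 7 genes, all but Icam2, every MI/RI sample was above every sham sample, against 37.2% of all genes tested. That share covers genes that passed the filter, and Madcam1, counted among the 6, did not pass it. Nothing is read from these counts, because the genes were chosen with the comparison in view. The size of the differences moved with the scaling and their order did not. The order did move with other settings. With a pseudocount of 1 Icam1 (2.19) lay above Sele (1.60), and without MI/RI replicate 2 Vcam1 (2.66) lay above Icam1 (2.64). Selp ranged from 5.50 to 6.35 on the log2 scale across the deposited values and the other 4 scalings, Sele from 2.67 to 3.51, Icam1 from 1.75 to 2.72, Vcam1 from 1.37 to 2.32, Selplg from 0.09 to 0.98 and Icam2 from -0.39 to 0.58. Set against the median of all tested genes under the same scaling, Selp was 5.79 to 5.96 above it, Sele 2.99 to 3.26, Icam1 2.07 to 2.23, Vcam1 1.82 to 1.94 and Selplg 0.50 to 0.77, while Icam2 lay within 0.09 of it.

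**Figure D2:**
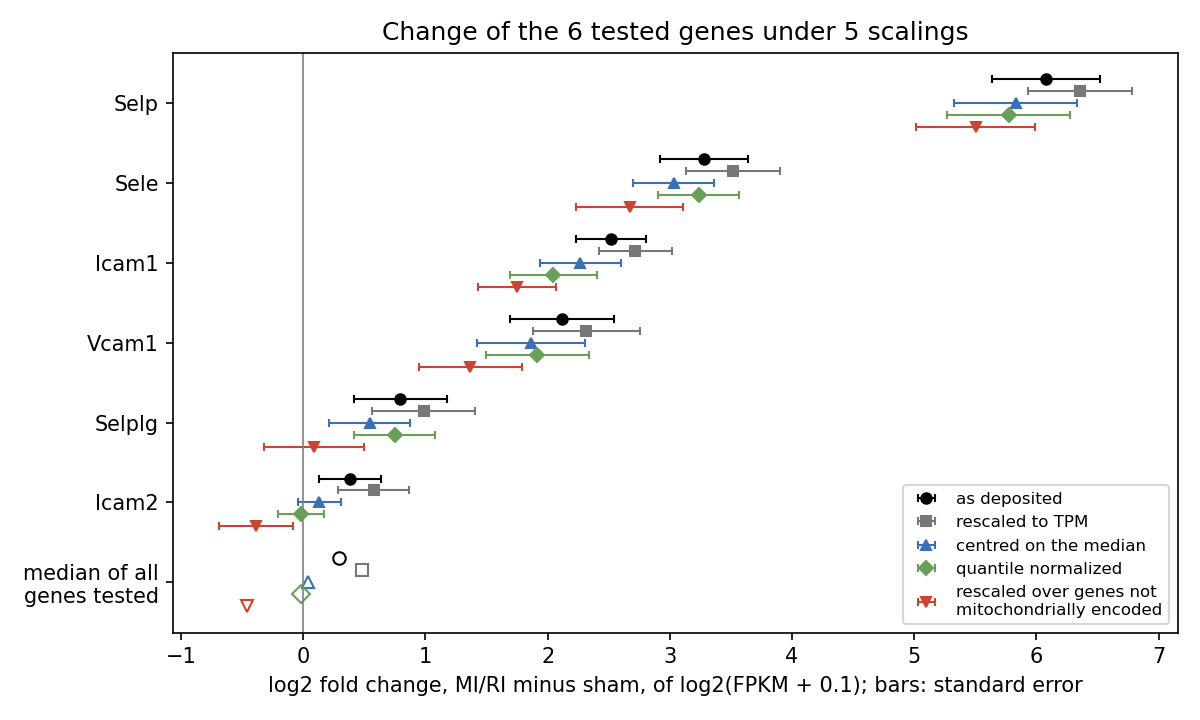
Log2 fold change (MI/RI minus sham, on log2(FPKM + 0.1)) of the 6 tested genes under 5 scalings, with bars for the standard error, and open symbols for the median of all genes tested. The median of all genes moves from -0.46 to 0.48 with the scaling, and Selp, Sele, Icam1 and Vcam1 stay above 1 under each, while Icam2 lies on both sides of 0.

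The genes also changed places with each other. In sham the order by mean FPKM was Icam2, Icam1, Vcam1, Selplg, Sele, Madcam1 and Selp. The ranges of Icam2 and Icam1 overlapped, as did those of Sele with Madcam1 and of Madcam1 with Selp, and the other neighbours were separate. In MI/RI the order was Icam1, Selp, Icam2, Vcam1, Sele, Selplg and Madcam1, with overlap between Icam1 and Selp, between Icam2 and Vcam1 and between Vcam1 and Sele. Selp thus had rank 7, 7 and 5 of the genes in the sham samples and rank 2, 2 and 1 in the MI/RI samples, and Icam2 had rank 1, 1 and 2 in sham and 4, 3 and 4 in MI/RI. The summed FPKM of the 7 genes was 8.33, 10.3 and 10.3 in sham and 42.6, 35.5 and 62.0 in MI/RI. Selp made up 0.335% to 2.04% of that sum in sham and 18.7% to 37.8% in MI/RI, and Icam2 made up 36.3% to 58.7% in sham and 8.71% to 15.5% in MI/RI.

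Markers of the cells that carry these molecules were set beside them. The calls of each marker list stand beside the share over all genes tested, 25.5% called higher and 7.36% lower. In bulk tissue, fewer or more cells of a type and less or more RNA per cell cannot be told apart. Of 14 endothelial markers 12 were found and tested, none was called in either direction (2 were higher in a fit blocked on replicate number, and 2 with voom on the recovered fragments), and their median log2 fold change was -0.19 against 0.29 for all genes. Their summed level was 286 to 367 FPKM in sham and 301 to 338 FPKM in MI/RI, with Eng and Pecam1 the most abundant. None of the endothelial markers found was at 0. After quantile normalization 8 of the 12 were called lower, and 7 after rescaling over genes not mitochondrially encoded.

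Because a ratio to markers in the same library does not depend, apart from the pseudocount, on the factor a library is divided by, each gene was also expressed as its log2(FPKM + 0.1) minus the mean of the 12 endothelial markers. Selp was -6.83 ± 0.70 in sham and -0.76 ± 0.87 in MI/RI (SD, n = 3), and in MI/RI replicate 3 its level exceeded the markers' mean by 0.23. Sele was -6.26 ± 0.42 and -2.99 ± 0.41. Both selectins were separated between the groups on this scale as on the FPKM scale. Icam1 was -2.88 ± 0.62 in sham and -0.37 ± 0.40 in MI/RI, Vcam1 -4.16 ± 0.48 and -2.05 ± 0.99, and Madcam1 -6.29 ± 0.19 and -4.94 ± 0.31. Icam2, the form present on resting endothelium, was -2.23 ± 0.19 and -1.86 ± 0.16, and its groups overlapped at their edges, from -2.39 to -2.01 in sham and from -2.01 to -1.70 in MI/RI. The changes relative to the endothelial markers were 6.07, 3.27, 2.51, 2.10, 1.35 and 0.37 for Selp, Sele, Icam1, Vcam1, Madcam1 and Icam2. The sham means of Selp, Sele and Madcam1 (0.101, 0.189 and 0.175 FPKM) were of the order of the pseudocount of 0.1. Their sham levels and changes on this scale therefore depend on it. In the fit across all genes Selp changed by 7.20 with a pseudocount of 0.01 and by 3.63 with 1.

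**Figure D3:**
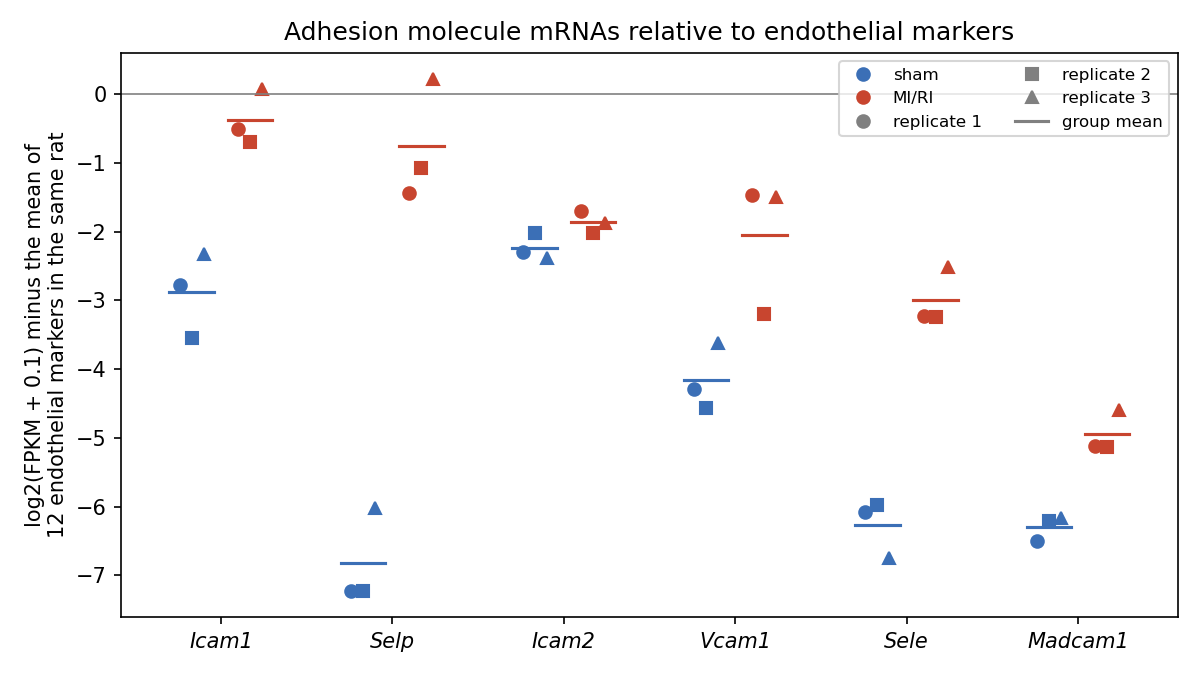
Level of 6 of the genes in each sample as log2(FPKM + 0.1) minus the mean of 12 endothelial markers in the same sample, with sham in blue, MI/RI in red and a line at each group mean; 0 is the markers' mean. The mean of Selp goes from -6.83 in sham to -0.76 in MI/RI, and that of Icam2 from -2.23 to -1.86.

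Platelets also carry P-selectin. Of 10 platelet and megakaryocyte markers 8 were found, 5 passed the filter and none was called. Gp1bb was the only marker found that was at 0 in all samples, while Itga2b, Gp9, Gp1ba and Treml1 were above 0 in each. The summed level of the markers found, led by Pf4 and Clec1b, was 22.7, 84.2 and 23.7 FPKM in the sham replicates. In the MI/RI replicates it was 17.3, 22.8 and 77.0 FPKM. Sham replicate 2 and MI/RI replicate 3 stood apart, the latter being the library with the highest Selp, while the highest Selp in sham was in replicate 3. Relative to the mean of the 5 markers that passed the filter, Selp was 5.98 higher in MI/RI on the log2 scale, and 6.36 higher without MI/RI replicate 3. The part of platelet RNA in the Selp level was not tested.

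Leukocytes carry PSGL-1, and their markers split by type. Of 15 neutrophil and monocyte markers all were found and 10 tested. Of these, 6 rose, among them S100a9 (log2 fold change 1.89, limma adjusted p 0.0057), Mmp8 (2.64) and Lcn2 (2.10, adjusted p 0.0037). None of them fell, and the median of the list was 1.49 (3 higher and 1 lower after rescaling over genes not mitochondrially encoded). Lyz2, the most abundant, was 41.9 ± 9.95 and 55.0 ± 8.28 FPKM (SD, n = 3) and was not called. Mmp8 and Csf3r, with sham means of 0.176 and 0.258 FPKM, passed the filter only through the MI/RI group. The call of Mmp8 is therefore a description. The summed level of the list was 69.5 to 80.3 FPKM in sham and 110 to 192 FPKM in MI/RI. Of the 10 pan-leukocyte markers 9 were found and tested, Hcls1 alone was called (0.81, adjusted p 0.0346, lost in the fit blocked on replicate number and whenever 1 library was left out), and none was called lower. The summed level was 57.1 to 77.2 FPKM in sham and 64.3 to 69.7 FPKM in MI/RI, with Tyrobp and Coro1a the most abundant. Ptprc, the gene of the leukocyte antigen CD45, was 0.578, 1.08 and 1.05 FPKM in sham and 0.381, 0.399 and 0.462 FPKM in MI/RI, without overlap and not called (-0.93, adjusted p 0.0675). It was called lower after centring, with no intensity trend, with voom, and without sham replicate 1, and after rescaling over genes not mitochondrially encoded none of the list was higher and Ptprc, Coro1a, Cd53 and Cd37 were lower. Selplg relative to the mean of the 9 tested pan-leukocyte markers was 0.80 higher in MI/RI. Relative to the mean of the 10 tested neutrophil and monocyte markers it was 0.55 lower (-0.55). Both differences rested on MI/RI replicate 1: without it they were 0.40 and -1.18. Without MI/RI replicate 2 or 3 the second was -0.25 or -0.21. Relative to the neutrophil and monocyte markers, replicate 1 (-0.98) was above the sham samples (-1.88 to -1.50) and MI/RI replicates 2 and 3 (-2.84 and -2.93) were below them. The MI/RI values of Selplg did not follow the summed neutrophil and monocyte level across the replicates, since MI/RI replicate 1 had the highest Selplg and the lowest sum, 110 FPKM. What part these markers have in the levels of the 7 genes was not tested.

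Other cell types of the sample were covered in the same way. Cardiomyocyte markers were far higher in MI/RI, with a summed level of 3489 to 11114 FPKM in sham and 21474 to 28907 FPKM in MI/RI, and 7 of 9 tested were called higher (median 2.28, most abundant Tnni3 and Tnnt2). This difference moved with the same grouping as the adhesion molecules, and its part in their levels was not tested. Of 10 smooth muscle and pericyte markers Rgs5 and Notch3 were called higher and Pdgfrb and Kcnj8 lower (median 0.51), and the summed level, led by Tagln and Acta2, was 109 to 296 FPKM in sham and 164 to 349 FPKM in MI/RI. Rescaling over genes not mitochondrially encoded gave 0 of them higher. Pdgfrb (limma adjusted p 0.0496) and Kcnj8 were not called with no filter or as TPM. Neither was called when replicate 2 or 3 of either group was left out. Pdgfrb was also not called without sham replicate 1, with no intensity trend or at a pseudocount of 0.01. Of 10 fibroblast markers Col1a1, Tcf21 and Gsn were called higher (median 0.58), while quantile normalization and rescaling over genes not mitochondrially encoded each gave 0 higher and 2 lower, Pdgfra and Dcn (medians -0.32 and -0.20). Without sham replicate 3 or MI/RI replicate 3 only Tcf21 was called, and without sham replicate 2 Gsn was not. In the deposited values the summed level, led by Gsn and Col3a1, was 973 to 1135 FPKM in sham and 1375 to 1602 FPKM in MI/RI. Of 8 mesothelial markers 7 were found and only Wt1 was tested, without a call (0.36), and the summed level was 4.03 to 6.72 FPKM in sham and 4.65 to 7.82 FPKM in MI/RI, with Krt8 the next most abundant. Of 9 lymphocyte markers 5 were tested and Klrd1 was called lower, with overlapping groups (median -0.73). Their summed level, led by Nkg7 and Cd2, was 10.9 to 21.4 FPKM in sham and 11.5 to 14.3 FPKM in MI/RI.

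Partners of the adhesion molecules and genes tied to selectin ligands were taken as a list, called leukocyte ligands below. The list held 25 integrin chains, selectin ligands and enzymes that build the glycans selectins bind. Only some of these bind a product of the 7 genes directly, and not all are confined to leukocytes. All were found, 18 were tested, 2 rose and none fell, where 25.5% of all genes tested rose and 7.36% fell, and the median log2 fold change was 0.45 against 0.29 for all genes. This list and those described below were drawn up with earlier results of these data known, so their counts are a description. Itgb1, the β1 integrin chain shared by VLA-4 and many integrins of other cells, was 31.1 ± 6.06 in sham and 56.8 ± 9.06 FPKM in MI/RI (0.87, SE 0.25, limma adjusted p 0.0237). St3gal3, a sialyltransferase, was 1.39 ± 0.144 and 4.02 ± 2.57 FPKM (1.30, SE 0.37, adjusted p 0.0243). Its MI/RI values were 6.98, 2.35 and 2.74 FPKM, so that replicate 1 stood apart as it did for Selplg. Itgb1 was not called without sham replicate 3 or MI/RI replicate 2 (adjusted p 0.101 and 0.0953), and St3gal3 was not called without sham replicate 2 or 3 (0.0780 and 0.0733). After rescaling over genes not mitochondrially encoded neither was called (adjusted p 0.806 and 0.235), and Itgb1 was also not called after centring (0.0561) or quantile normalization (0.782).

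The direct partners were mostly low. Itgb2, the β2 chain of LFA-1 and Mac-1, was 1.22 ± 0.153 and 1.91 ± 0.518 FPKM, without overlap and not called (0.59, adjusted p 0.111). Itgal, the α chain of LFA-1, was 0.698 ± 0.0377 and 0.829 ± 0.245 FPKM and overlapped (0.19, adjusted p 0.669). Itgb7, which pairs with α4 to bind MAdCAM-1, was 0.511 ± 0.158 and 0.793 ± 0.107 FPKM (0.57, adjusted p 0.213). Of the selectin ligands, Cd44 was 2.28 ± 0.274 and 3.41 ± 0.102 FPKM without overlap (0.57, adjusted p 0.0620, called under TPM scaling), and Spn was 0.544 ± 0.233 and 0.568 ± 0.241 FPKM (0.06, adjusted p 0.930). Itgam and Itga4 were under the filter. Itgam, the α chain of Mac-1, was 0.163, 0.351 and 0.317 FPKM in sham and 0.437, 0.443 and 0.556 FPKM in MI/RI without overlap, from 15 to 38 fragments in sham and 35 to 45 in MI/RI. Itga4, the α chain of VLA-4, was 0.164 ± 0.0836 and 0.109 ± 0.0559 FPKM and overlapped.

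The endothelial junction and transmigration list had 20 genes, of which 15 were found and 12 tested. Only Pvr, the nectin-like receptor CD155, was called, at 1.27 ± 0.536 FPKM in sham and 7.22 ± 3.06 FPKM in MI/RI (2.41, SE 0.37, limma adjusted p 0.0033). The median of the list was 0.09, under that of all genes, of which 25.5% were called higher and 7.36% lower. In the fit blocked on replicate number 2 genes of the list were called, since Mcam was called as well. Pecam1, through which leukocytes pass endothelial junctions, was 44.0 ± 8.85 and 53.4 ± 8.04 FPKM (0.29, adjusted p 0.397). Glycam1 was at 0 in all samples. Under the scalings that centre or reduce the MI/RI samples, 3 to 6 genes of the list were called lower, and Pvr was called higher in each of them.

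P-selectin protein is released from stores and selectins are shed by proteases, so the genes of both processes were examined. Of 14 genes 13 were found and 12 tested, with 2 higher, none lower and a median of 0.20. Over all genes tested 25.5% were higher and 7.36% lower, with a median of 0.29. Timp3, an inhibitor of the shedding protease ADAM17, was 18.3 ± 5.68 and 43.9 ± 9.33 FPKM (1.28, SE 0.28, limma adjusted p 0.0096). Cd63, a membrane protein of Weibel-Palade bodies and of lysosomes in most cells, was 68.3 ± 27.6 and 136 ± 23.1 FPKM (1.06, SE 0.31, adjusted p 0.0257). Neither call held after quantile normalization (adjusted p 0.281 and 0.915) or after rescaling over genes not mitochondrially encoded (0.196 and 0.410). Cd63 was also not called without sham replicate 2 or 3 or MI/RI replicate 1 or 2 (adjusted p 0.0586 to 0.105). Vwf, whose product is stored with P-selectin, was 12.1 ± 0.639 and 10.5 ± 1.87 FPKM (-0.21, adjusted p 0.485), and Adam17 was 4.32 ± 1.60 and 4.42 ± 0.593 FPKM (0.08, adjusted p 0.843). Both overlapped between the groups. Vwf was called lower after quantile normalization (-0.87, adjusted p 0.0273) and after rescaling over genes not mitochondrially encoded (-0.99, adjusted p 0.0141), the scalings under which Selp was 5.77 and 5.50 higher.

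The regulators that induce or restrain endothelial adhesion genes contained the most calls of the 4 lists. All 22 were found, 20 were tested, 11 rose and none fell, where 25.5% of all genes tested rose and 7.36% fell, and the median was 1.06 against 0.29 for all genes. The list was drawn up with earlier results of these data known, so its counts are a description. Induction of the adhesion genes by these regulators was not tested. Il1b, the cytokine interleukin-1β, was 0.634, 0.773 and 0.715 FPKM in sham and 3.63, 7.70 and 7.41 FPKM in MI/RI (2.90, SE 0.30, limma adjusted p 0.000836). Relb, an NF-κB subunit, was 1.28, 1.26 and 1.18 FPKM in sham and 5.91, 8.19 and 6.23 FPKM in MI/RI (2.35, SE 0.22, adjusted p 0.000502). Atf3, a stress-induced transcription factor, was 1.68, 1.25 and 1.62 FPKM in sham and 54.4, 59.5 and 19.1 FPKM in MI/RI (4.63, SE 0.40, adjusted p 0.000324). No values of these genes overlapped. The other genes called were the subunits Nfkb1 (1.57), Nfkb2 (1.95) and Rela (1.10), the inhibitors Nfkbib (2.06) and Tnfaip3 (2.30), the receptors Tnfrsf1a (1.52) and Il1r1 (1.03), and Klf6 (1.03). Tnfaip3, with means of 0.378 FPKM in sham and 2.22 FPKM in MI/RI, passed the filter only through the MI/RI group. Tnf, the other classical inducer, was under the filter at 0.420 ± 0.236 and 0.420 ± 0.362 FPKM and overlapped. After rescaling over genes not mitochondrially encoded 6 were called higher, Il1b, Nfkb2, Relb, Nfkbib, Tnfaip3 and Atf3, and Gata2 was called lower.

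**Figure D4:**
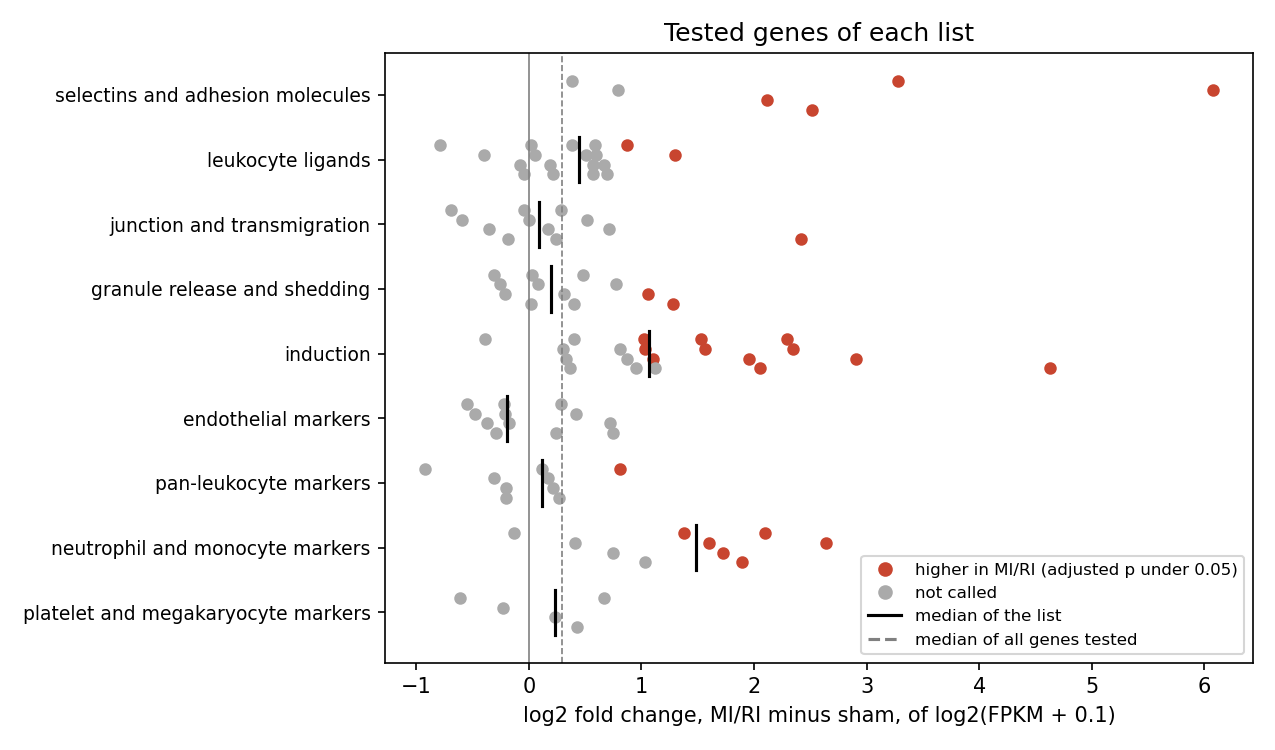
Log2 fold change (MI/RI minus sham, on log2(FPKM + 0.1)) of the tested genes of the adhesion molecules, 4 pathway lists and 4 marker lists, red where called higher and grey where not called, with a black line at the median of each list other than the chosen genes and a dashed line at the median of all genes tested, 0.29. The induction list (median 1.06) and the neutrophil and monocyte list (median 1.49) lie to the right of the dashed line, and the endothelial list (median -0.19) to the left.

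The genes whose profiles over the 6 samples were most like each adhesion molecule were sought among 8578 genes, by the root mean square difference between log2(FPKM + 0.1) values that had each been centred on their own mean. Nearest to Selp were the chemokines Cxcl1 (0.497) and Ccl2 (0.528) and the cytokine Il6 (0.542). Cxcl1 was 0.539 to 0.976 FPKM in sham and 56.0 to 102 FPKM in MI/RI, and Ccl2 was 0.755, 0.742 and 3.54 FPKM in sham and 34.9 to 95.9 FPKM in MI/RI. Selp, Cxcl1 and Ccl2 were all highest in replicate 3 of each group. Nearest to Sele were the transcription factor Myc (0.199), AABR07063082.1 (0.272) and the inhibin chain Inha (0.366). Icam1 was nearest to Birc3 (0.314), Rrad (0.329) and Tnfaip3 (0.342), of which Birc3 and Tnfaip3 encode regulators of NF-κB signalling. Vcam1 was nearest to Rrad (0.232), AABR07014550.1 (0.312) and Lrrc4b (0.356), which were all lowest in replicate 2 among the MI/RI samples. Selplg was nearest to Vnn1 (0.0788), Gpd1l (0.0871) and Nol3 (0.0916), all highest in MI/RI replicate 1, at 15.9, 11.7 and 16.3 FPKM. Icam2 was nearest to Rgp1 (0.0465), Osbpl11 (0.0575) and Dpp4 (0.0577). A small difference is easier to reach for a gene that varies little, so the values of different adhesion molecules are not comparable. The centred profiles keep the difference between the groups, by which the adhesion molecules were chosen. Genes with a change of similar size therefore come out nearest, and few genes changed as much as Selp. Whether the genes found share regulation with the adhesion molecules was not tested.

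Genes next to the adhesion molecules in the RefSeq gene table were examined as well. F5, beside Selp, was 0.212 ± 0.142 and 0.391 ± 0.400 FPKM and overlapped, and Mettl18, beside Sele, was 0.948 ± 0.104 and 0.686 ± 0.0697 FPKM (-0.41, limma adjusted p 0.274). On either side of Icam1, Mrpl4, a mitochondrial ribosomal protein gene, was called higher at 8.03 ± 3.28 and 36.0 ± 18.4 FPKM (2.11, SE 0.38, adjusted p 0.0048), and Icam4 was at 0 fragments in each sham library and at 7, 5 and 11 in the MI/RI libraries. Coro1c, beside Selplg, was called higher (0.85, SE 0.23, adjusted p 0.0192), though not after centring, quantile normalization or rescaling over genes not mitochondrially encoded, nor without sham replicate 3 or MI/RI replicate 2. Tmem119 on its other side was 0.114 ± 0.0864 and 0.598 ± 0.121 FPKM, under the filter. Extl2 beside Vcam1, Ern1 beside Icam2 and Shc2 beside Madcam1 were under the filter and overlapped between the groups. Prr29, also beside Icam2, was not called (0.26, adjusted p 0.569), nor was Tpgs1 beside Madcam1 (0.69, adjusted p 0.0802, and 0.0318 in the fit blocked on replicate number).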

How the data were processed

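Myocardium of 3 sham and 3 MI/RI rats was measured by RNA-seq from stranded total RNA libraries. The authors deposited FPKM values for 30452 Ensembl genes, 7092 of them without a symbol, and their processing notes name STAR and HTSeq, while versions, genome build, annotation and strand setting were not given in the sources used here. Samples were grouped by their treatment labels, columns were matched to samples by name, and rows sharing a symbol were summed to 28293 genes.

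The members and lists were chosen with earlier results of these data known. A limma fit (version 3.58.1, R 4.3.3, lmFit then eBayes, trend on) compared log2(FPKM + 0.1) between the groups for the 10942 genes averaging 0.5 FPKM or more, and p-values were Benjamini-Hochberg adjusted over all of them (threshold 0.05). The fit was tested on simulated data. Whole fragments (up to 200000 per gene) and the totals of 36848184 to 49848438 behind the libraries were recovered from the spacing of the deposited FPKM, and their Poisson intervals cover counting error only. Genes named were the members, the 3 called genes of each of 4 pathway lists with the largest change, any in the rarer direction, direct partners, the 3 genes with the nearest profile (mean of at least 1 FPKM), RefSeq neighbours and the 2 most abundant of each of 9 marker lists. Marker genes called in a list, and calls that differ between alternatives, were named beyond this rule, after their values were seen.

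Deviations from the group means correlated weakly between samples with the same replicate number (0.20, 0.12 and 0.12). The labels give the numbers only, and samples with different numbers were not compared in this way, so pairing is not shown. A fit with the replicate number as a block was run beside the unblocked one. The alternatives were pseudocounts of 1 and 0.01, other filters, TPM, median centring, quantile normalization, rescaling over genes not mitochondrially encoded, no trend, the replicate block, taking only the highest row where rows shared a symbol, and leaving out each sample. The voom transformation on recovered fragments and leaving out samples in the levels relative to markers were added after seeing the data. Coordinates are those of the RefSeq promoter table (GRCr8) and were not applied to the expression table. Ischemia without reperfusion and other experiments of the study were not analysed here. Some partner and neighbouring genes are not reported here.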

Additional observations from a re-analysis of the deposited data

How the results depend on the processing

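The adhesion molecules were chosen with this comparison known, so their calls under other settings are a description and no sign of stability. There were 4 as reported, 2 (of 3 genes entering) at a mean of at least 5 FPKM, and 5 of 7 with no filter, Madcam1 being the fifth. Selp ranged from 3.63 (pseudocount 1) to 7.32 (voom on recovered fragments) on the log2 scale. With the replicate number as a block the junction list had 2 genes called higher in place of 1 (Mcam added), the leukocyte ligands 3 in place of 2 (Tpst2), the granule list 3 in place of 2 (Angpt2) and the induction list 13 in place of 11 (Jun and Klf4), and Tpgs1, Gpd1l and Nol3 were called. Hcls1 lost its call. Among all genes, 1554 were called lower after centring, 1441 higher and 1559 lower after quantile normalization, 793 higher and 2857 lower after rescaling over genes not mitochondrially encoded, 504 lower as TPM and 166 lower at a mean of at least 5 FPKM. Of leukocyte ligands, 1 was called higher after centring or with no filter, 1 higher and 1 lower after quantile normalization, 0 higher and 2 lower without mitochondrial mRNAs, and 4 higher as TPM. In the junction list 3, 6 and 5 were lower under the same centring, quantile and non-mitochondrial settings, and 2 were higher as TPM or with no filter. In the granule and shedding list 1 was higher after centring or with no filter, 0 higher and 3 lower after quantile normalization, and 0 higher and 4 lower without mitochondrial mRNAs. Of the induction list 7 of 14 were higher at a mean of at least 5 FPKM, and 6 higher and 1 lower without mitochondrial mRNAs. Fewer genes were tested under the stricter filter; the cause of the other shifts was not tested.

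Leaving out 1 sample gave 1528 to 2557 genes higher (fewest without sham replicate 3) and 309 to 881 lower (309 and 359 without sham replicates 2 and 3), 0 to 2 leukocyte ligands (0 without sham replicate 3, 1 without sham replicate 2 or MI/RI replicate 2), 1 to 2 junction genes higher (2, with Mcam, without sham replicate 2) and 0 to 1 lower (Tjp1, without MI/RI replicate 1), 1 to 2 granule genes (1 without sham replicate 2 or 3 or MI/RI replicate 2) and 9 to 12 induction genes. Some log2 fold changes of genes not called turned negative: after centring Spn (-0.19), Itgal (-0.061) and Adam17 (-0.17); after quantile normalization Icam2 (-0.019), Pecam1 (-0.72) and Adam17 (-0.27), and also Itgb1 (-0.088), which had been called; without mitochondrial mRNAs Icam2 (-0.39), Cd44 (-0.19), Spn (-0.61), Itgal (-0.51), Itgb2 (-0.15), Itgb7 (-0.11), Pecam1 (-0.50), Adam17 (-0.69), Vnn1 (-0.043), Rgp1 (-0.38), Osbpl11 (-0.37), Dpp4 (-0.32), Prr29 (-0.48) and Tpgs1 (-0.088). Leaving out 1 sample gave Spn from -0.22 (without MI/RI replicate 1; -0.17 without sham replicate 2) to 0.33, Itgal from -0.013 (MI/RI replicate 1) to 0.35, Adam17 from -0.075 (sham replicate 3; -0.043 and -0.024 without sham replicate 1 and MI/RI replicate 2) to 0.36, and Prr29 from -0.074 (sham replicate 3) to 0.43. Of the remaining gene values under alternatives, 706 kept direction and call, 24 lost a call and 11 gained one.

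Depth limits the low genes: Selp in sham rested on 4 to 34 fragments and Madcam1 on 6 to 35 in all samples. With 3 samples a group, levels that overlap cannot be said to be equal. The summed cardiomyocyte markers and the mitochondrial mRNA share moved with the groups, and their part in the levels of the adhesion molecules was not tested. mRNA was measured, not protein on the cell surface.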
